A study of Mus musculus with 6 samples.

Results

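The SNARE and synaptotagmin genes are the protein-coding genes whose symbols match Syt, Stx, Stxbp, Vamp, Snap or Sytl followed by a number, together with *Napa*, *Napb*, *Napg* and *Nsf*, and they numbered 59 of the 40166 genes in the count table. The rule uses symbols only, though it was drawn up with earlier results of these data known. From the known work of each protein, 26 members were placed in neuronal exocytosis and 26 in general membrane trafficking, and 5 were synaptotagmin-like Rab effectors. All 17 synaptotagmins were placed in the neuronal class. For 9 of them, calcium-dependent membrane binding is absent or the function is unsettled. A change of this class therefore need not be one of neuronal exocytosis. The other members were *Snap91*, a clathrin adaptor that shares the name but is no SNARE, and *Vamp9*, to which no role was assigned.

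SNARE proteins drive the fusion of membranes inside cells. A SNARE on a vesicle, such as a VAMP, zips together with a syntaxin and a protein of the SNAP-25 family on the target membrane, an SM protein guides the assembly, and the ATPase NSF with its SNAP adaptors takes the spent complex apart. Synaptotagmins sit on vesicles, and several of them bind calcium and trigger the release of transmitter or hormone. Most cells use the general members for traffic between the endoplasmic reticulum, Golgi, endosomes, lysosomes and plasma membrane, while the neuronal members are best known from synapses and endocrine cells.

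RNA from 6 tumors of YUMM3.3, a BRAF-mutant mouse melanoma cell line injected under the skin of C57BL/6 mice, was sequenced after 17 days of treatment. Of these, 3 tumors (replicates 7, 8 and 9) came from mice given water as vehicle (0 mg/kg), 3 (replicates 10, 11 and 12) from mice given rigosertib (RGS, an inhibitor of RAS signaling to its effectors) at 300 mg/kg, and both were dosed 5 days a week by mouth. All tumors grew from 1 cell line, and the labels do not say which tumors shared a cage or a processing day, so p-values measure the spread between these tumors. In bulk RNA, fewer cells of a type cannot be told apart from less RNA per cell.

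The counts summed to between 22793087 and 32555494 per vehicle tumor and between 13837932 and 21617368 per RGS tumor, so depth differed between the groups without overlap, and the members took 0.172% to 0.190% of them. Levels are given as CPM (library-scaled counts from edgeR's cpm function with TMM factors), per kb of gene length where genes are compared with each other, and in the order of the replicate numbers. Fold changes compare RGS with vehicle on the log2 scale of edgeR's quasi-likelihood fit, and a gene was called at a Benjamini-Hochberg adjusted p under 0.05. A gene entered the test with a median of at least 5 counts in at least 1 group. The defining melanocyte markers *Tyr*, *Dct*, *Mlana*, *Slc45a2* and *Gpr143* had 0 counts in every tumor, as had *Ptprc* and *Cd3e* of leukocytes and *Emcn* of endothelium. Some other markers of the same lists were counted, among them *Mitf* (74 to 261 counts), *Cd68* of myeloid cells (917 to 2265) and *Cdh5* of endothelium (7 to 167). *Trac* of T cells had 0 counts with vehicle and 10 to 30 with RGS, and both *Trac* and *Cdh5* were called higher. In all, 5 of 9 melanocyte, 2 of 9 myeloid, 5 of 9 T and NK cell and 1 of 6 endothelial markers had 0 counts in every tumor. Only 2 melanocyte, 2 myeloid, 1 T and NK cell and 3 endothelial markers had enough counts to be tested. These libraries are labelled as tumor tissue, but the defining markers named were not seen in the counts. The reason was not tested, so whether the libraries hold the mixed cells of a whole tumor is uncertain. Among 12 neuron markers, 9 were tested, 6 were higher (66.7%, beside 16.3% of all tested genes) and 0 lower. Their summed level was 134 to 145 CPM with vehicle and 817 to 956 CPM with RGS. Most of that rise lay in *Nefl* (mean 25.0 CPM with vehicle and 449 with RGS) and *Nefm* (22.2 and 201 CPM). *Map2*, *Elavl4* and *Stmn2* were not called, and *Elavl3* was called higher with overlapping groups. The defining neuron markers *Dcx* and *Nefh* had 0 counts in every tumor, and *Rbfox3* had 4 counts in 1 vehicle tumor and 0 in the others.

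Of the 59 members, 47 were tested, of which 11 rose with RGS (23.4%), 12 fell (25.5%) and 24 were not called. Over all 15355 tested genes, 16.3% were called higher and 16.5% lower. The groups did not overlap for 26 of the 47 tested members, beside 45.8% of all tested genes. They also did not overlap for 22 of the 23 called members, but a call itself selects for such separation. The median log2 fold change was 0.11 over the tested members and -0.05 over all tested genes. Scaling by library size alone moved the median of all genes by -0.14 (log2), called 12.2% of genes higher and 20.5% lower, and called 6 members higher (12.8%) and 13 lower (27.7%). No called member changed its direction under it, while 5 of the uncalled members described here did, each with a log2 fold change near 0. The 12 untested members comprised *Vamp8*, *Syt3*, *Syt10* and *Vamp9*, with 0 counts in every tumor, and *Syt5*, *Syt6*, *Syt9*, *Syt16*, *Stx19*, *Sytl3*, *Sytl4* and *Sytl5*, with at most 21 counts in any tumor.

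More neuronal members rose than fell, and more general members fell than rose, but the neuronal counts were equal with scaling by library size alone (5 and 5) and without RGS replicate 10 (4 and 4). In the neuronal class, 20 of 26 members were tested, 7 rose, 4 fell and 9 were not called, with a median log2 fold change of 0.35. In the general class, 24 of 26 were tested, 4 rose, 7 fell and 13 were not called, with a median of 0.01. The difference between the classes was not tested. *Syt4* and *Syt15* were at 0 counts in a whole group, and the neuronal median was the same with both set to their bounds. It could not have changed, since each bound lies on the same side of the median as the fitted value. The neuronal members were the less abundant, with a median level of 0.749 CPM per kb with vehicle and 0.861 with RGS, beside 10.3 and 8.47 for the general members and 3.80 and 3.45 for all tested genes. Summed over its members, the neuronal class stood at 57.7, 50.5 and 52.3 CPM per kb with vehicle and at 108, 101 and 101 with RGS, so that every RGS tumor was above every vehicle tumor. The general class summed to 331, 362 and 362 CPM per kb with vehicle and to 343, 334 and 363 with RGS, and these values overlapped. The summed neuron markers, with RGS mostly *Nefl* and *Nefm*, were also higher in every RGS tumor, and their part in the result was not tested.

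**Figure D1:**
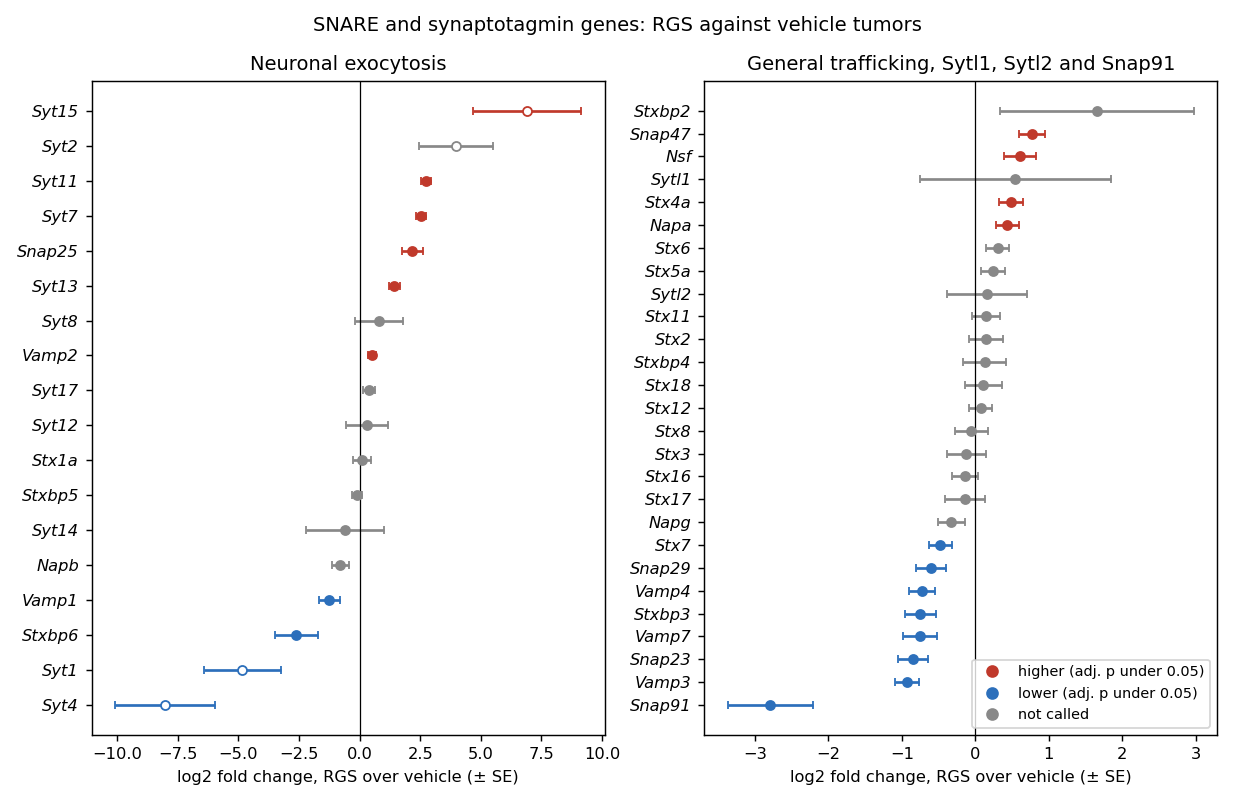
Log2 fold change of the tested members reported here, RGS against vehicle, with bars of 1 SE from edgeR's fit; red points were called higher, blue points lower and grey points not called, and open points mark members with at most 3 counts in every tumor of 1 group, whose fitted fold change depends on the prior count. The neuronal members (left) spread far to both sides, while on the right, on a narrower axis, all general members but *Stxbp2* lie within 1 log2 unit of 0.

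Among the synaptotagmins, *Syt7*, *Syt11* and *Syt13* rose several-fold, and they made up most of the gain of the class. Of the 17 synaptotagmins, 11 were tested, 4 rose (36.4%, beside 16.3% of all tested genes), 2 fell (18.2%, beside 16.5%) and 5 were not called. Their summed level was 15.3, 11.8 and 11.5 CPM per kb with vehicle and 48.3, 50.9 and 48.5 CPM per kb with RGS. *Syt11*, which does not bind calcium and acts in vesicle traffic, lies at chr3:88744700-88775164 (GRCm38) and was at 21.3, 14.8 and 12 CPM with vehicle and at 104, 109.8 and 109 CPM with RGS. All RGS tumors were close together and far above every vehicle tumor, a 6.68-fold rise (log2 fold change 2.74 ± 0.21 SE, adjusted p = 1.52e-08). *Syt7*, a calcium sensor of high affinity that serves slow release and lysosome exocytosis, lies at chr19:10389090-10453181 and was at 26.1, 16.5 and 18.2 CPM with vehicle and at 128, 124 and 97.0 CPM with RGS. It rose 5.72-fold with no overlap of the groups (log2 fold change 2.52 ± 0.20 SE, adjusted p = 3.65e-08). *Syt13*, another member that does not bind calcium, lies at chr2:92915098-92956058 and was at 9.88, 9.30 and 9.89 CPM with vehicle and at 24.8, 24.3 and 29.4 CPM with RGS. The vehicle tumors were nearly alike, and the rise was 2.699-fold (log2 fold change 1.43 ± 0.24 SE, adjusted p = 1.37e-04). All of these calls held with any 1 tumor left out. Per kb, *Syt11* stood 24th of the 59 members with vehicle and 8th with RGS, and *Syt7* went from 25th to 10th.

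Apart from *Syt17* (283 to 684 counts), the other synaptotagmins had few counts. Of those known as fast calcium sensors, *Syt1* fell and *Syt2* was not called. *Syt1*, the fast sensor of synaptic vesicles, fell with 41, 17 and 41 counts at vehicle and 2, 0 and 0 counts at RGS. The groups did not overlap, and the summed counts gave a ratio of vehicle to RGS of 29.1 (95% exact interval 7.84 to 244, counting error only; edgeR adjusted p = 0.0256). The call of *Syt1* was lost without vehicle replicate 7, 8 or 9 or RGS replicate 11 or 12 (adjusted p = 0.0730 to 0.124). *Syt4*, a synaptotagmin of dense-core vesicles, fell with 7, 45 and 58 counts at vehicle and 0, 0 and 0 counts at RGS. With every RGS tumor at 0, it was at least 7.79-fold lower against a floor of 3 counts per library (adjusted p = 0.00639), and the call held with any 1 tumor left out. *Syt2*, the close relative of *Syt1*, was not called with 2, 1 and 2 counts at vehicle and 4, 13 and 31 counts at RGS. The ratio of RGS to vehicle in summed counts was 16.3 (95% exact interval 6.54 to 52.6, counting error only) at an edgeR adjusted p of 0.0514. DESeq2 called it higher, and *Syt2* overlaps *Ppp1r12b*, which had 163 to 996 counts. *Syt15* was called higher with 0, 0 and 0 counts at vehicle and 16, 16 and 0 counts at RGS, which is at least 6.10-fold against the floor (adjusted p = 0.0253). Its groups overlapped, since RGS replicate 12 had 0 counts, and the call was lost without vehicle replicate 7, 8 or 9 or RGS replicate 10 or 11 (adjusted p = 0.0830 to 0.129) and under limma voom.

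No call was made for *Syt8*, *Syt12*, *Syt14* and *Syt17*. *Syt17*, the most abundant of them, was at 19.5, 16.6 and 12.2 CPM with vehicle and at 18.7, 21.6 and 23.4 CPM with RGS, with a log2 fold change of 0.39 ± 0.25 SE and an adjusted p of 0.237. *Syt12* was at 1.03, 1.53 and 1.98 CPM with vehicle and at 0.568, 1.28 and 3.73 CPM with RGS, with a log2 fold change of 0.30 ± 0.87 SE and an adjusted p of 0.826, and it overlaps *A930001C03Rik*. These groups overlapped for both genes. *Syt8* was at 1.598, 0.428 and 0.817 CPM with vehicle and at 0.521, 2.79 and 1.71 CPM with RGS, with a log2 fold change of 0.81 ± 0.99 SE and an adjusted p of 0.574. *Syt14* was at 0.228, 0.356 and 0.989 CPM with vehicle and at 0, 1.05 and 0 CPM with RGS, with a log2 fold change of -0.61 ± 1.62 SE and an adjusted p of 0.809.

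**Figure D2:**
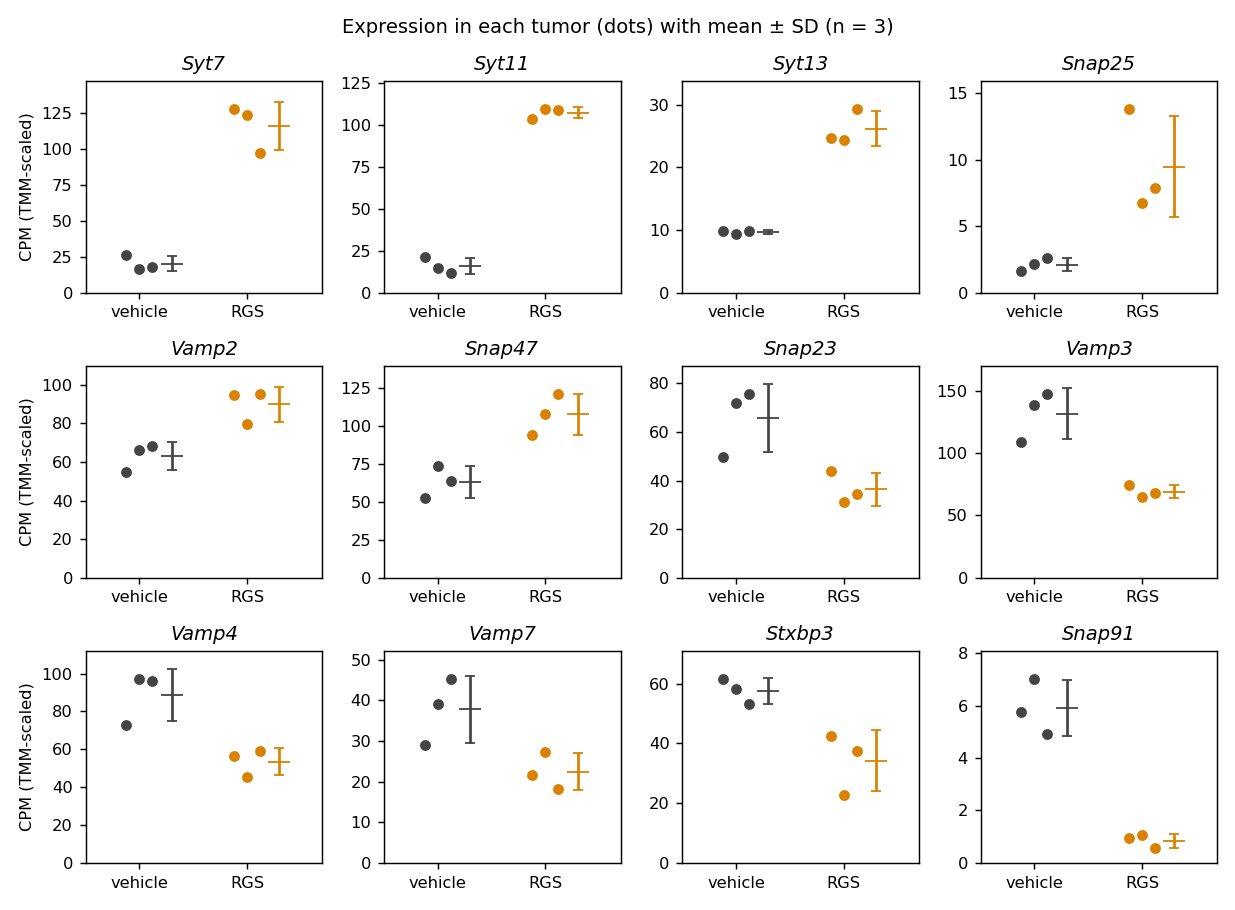
Level in each tumor (CPM, linear axes from 0 that differ between panels) of the 12 members named above the panels, with vehicle and RGS in separate colours and each group's mean ± SD (n = 3). *Syt11*, *Syt7*, *Syt13* and *Snap25* show 3 RGS tumors above all 3 vehicle tumors, and *Vamp3*, *Snap23* and *Snap91* show 3 RGS tumors below them.

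On the plasma membrane side, *Snap25* rose while its ubiquitous relative *Snap23* fell. *Snap25*, the neuronal SNAP-25 family member, lies at chr2:136713453-136782428 and was at 1.598, 2.14 and 2.58 CPM with vehicle and at 13.82, 6.71 and 7.89 CPM with RGS. RGS replicate 10 was the highest, no values overlapped, and the rise was 4.52-fold (log2 fold change 2.18 ± 0.44 SE, adjusted p = 8.77e-04). *Snap23*, which serves exocytosis in most cells, lies at chr2:120567671-120601255 and was at 49.6, 71.7 and 75.7 CPM with vehicle and at 43.7, 31.0 and 34.3 CPM with RGS. The highest RGS value was below the lowest vehicle value (log2 fold change -0.85 ± 0.20 SE, adjusted p = 0.00321). Both calls held with any 1 tumor left out. As a share of *Snap25* and *Snap23* counts per kb in each tumor, *Snap25* made up 1.995, 1.85 and 2.11% with vehicle and 16.7, 12.04 and 12.7% with RGS. The means were 1.98% ± 0.130 against 13.79% ± 2.50 (SD, n = 3 per group, exact permutation test, two-sided p = 0.1), and 0.1 is the smallest p that 3 against 3 tumors allow. The summed family stood at 15.6 ± 3.34 CPM per kb with vehicle and 9.86 ± 2.10 CPM per kb with RGS (SD, n = 3 per group), so *Snap23* was still the larger part.

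Among the plasma membrane syntaxins described here, *Stx4a* rose and *Stx1a* was not called. *Stx1a*, the neuronal plasma membrane syntaxin, was at 4.51, 6.52 and 7.52 CPM with vehicle and at 6.58, 7.76 and 5.45 CPM with RGS, with a log2 fold change of 0.09 ± 0.38 SE and an adjusted p of 0.878. *Stx4a*, the syntaxin of regulated fusion in muscle and fat, was at 75.4, 67.5 and 76.7 CPM with vehicle and at 92.0, 94.6 and 120.1 CPM with RGS and rose (log2 fold change 0.48 ± 0.17 SE, adjusted p = 0.0320). The groups of *Stx4a* did not overlap, but its call was lost without vehicle replicate 8 or RGS replicate 11 or 12 (adjusted p = 0.0604 to 0.195) and with scaling by library size alone. The relatives *Stx2* and *Stx3* were not called, *Stx2* at 22.2, 19.6 and 17.1 CPM with vehicle and at 21.2, 17.6 and 26.3 CPM with RGS (log2 fold change 0.15 ± 0.24 SE, adjusted p = 0.679). *Stx3* was at 14.2, 12.8 and 20.3 CPM with vehicle and at 15.8, 13.0 and 14.5 CPM with RGS (log2 fold change -0.13 ± 0.27 SE, adjusted p = 0.756). *Stx11*, a syntaxin of immune cells, gave a log2 fold change of 0.15 ± 0.19 SE and an adjusted p of 0.604.

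Among the vesicle SNAREs of exocytosis, *Vamp2* rose and *Vamp3* and *Vamp1* fell. *Vamp2*, the main VAMP of synaptic vesicles, lies at chr11:69088490-69092384 and was at 54.9, 66.5 and 68.5 CPM with vehicle and at 94.9, 79.5 and 95.4 CPM with RGS. Its groups did not overlap (log2 fold change 0.51 ± 0.17 SE, adjusted p = 0.0258), and the call was lost without vehicle replicate 7 or 8 or RGS replicate 10 or 12 (adjusted p = 0.0508 to 0.107) and with scaling by library size alone. *Vamp3*, the relative on recycling endosomes of most cells, lies at chr4:151047300-151057963 and was at 109, 138 and 148 CPM with vehicle and at 74.6, 64.7 and 67.8 CPM with RGS. It fell in every RGS tumor below every vehicle tumor (log2 fold change -0.93 ± 0.17 SE, adjusted p = 2.81e-04), with the call held when any 1 tumor was left out. It overlaps *Camta1* on the same strand (120 to 400 counts). *Vamp1*, a synaptic vesicle VAMP of spinal cord and motor neurons, was at 8.73, 5.63 and 7.78 CPM with vehicle and at 3.41, 2.34 and 3.49 CPM with RGS. No values overlapped (log2 fold change -1.26 ± 0.43 SE, adjusted p = 0.0312), but the call was lost without vehicle replicate 7, 8 or 9 or RGS replicate 11 (adjusted p = 0.0572 to 0.116) and under limma voom, and the gene overlaps *Tapbpl* (23 to 121 counts). *Vamp8*, the other member of the share, had 0 counts in every tumor. *Vamp1* and *Vamp2* made up 28.9, 27.3 and 26.8% with vehicle and 49.4, 48.5 and 52.0% with RGS of these VAMP counts per kb. The mean shares were 27.7% ± 1.06 against 49.97% ± 1.79 (SD, n = 3 per group, exact permutation test, two-sided p = 0.1), on a family total of 62.9 ± 8.83 CPM per kb with vehicle and 47.8 ± 3.89 CPM per kb with RGS (SD, n = 3 per group).

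**Figure D3:**
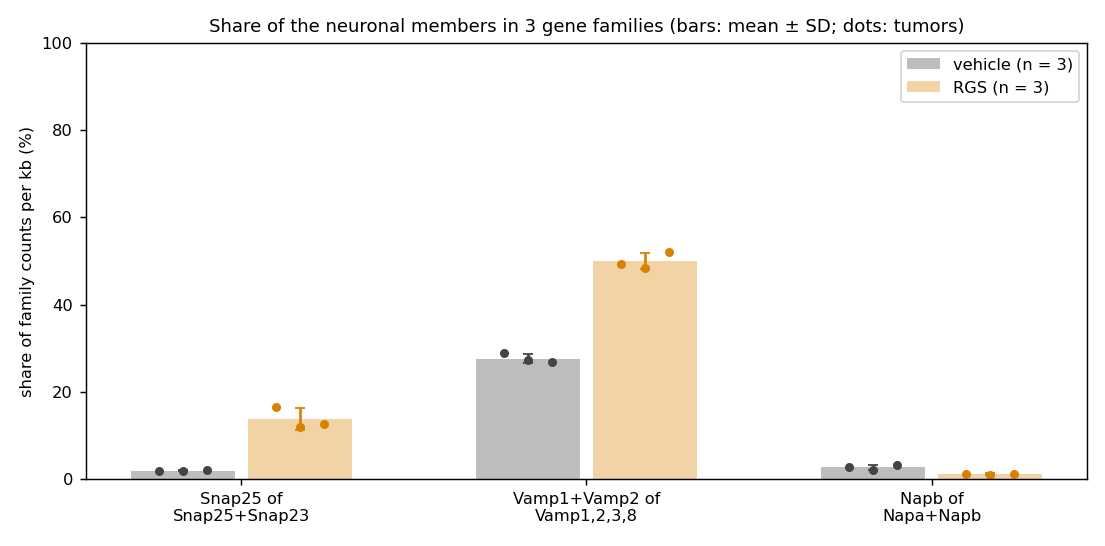
Share of counts per kb (percent, linear axis) that the neuronal members took within 3 paralog groups in each tumor, with bars at the group means, error bars of 1 SD (n = 3) and dots for the tumors. The shares of *Snap25* and of *Vamp1* with *Vamp2* were higher in all 3 RGS tumors, and the *Napb* share was lower in all 3.

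Of the regulators of assembly, *Stxbp3* and *Stxbp6* fell. *Stxbp3*, the SM protein that pairs with *Stx4a*, was at 61.5, 58.1 and 53.1 CPM with vehicle and at 42.5, 22.8 and 37.4 CPM with RGS. Its groups did not overlap (log2 fold change -0.75 ± 0.21 SE, adjusted p = 0.0111), and the call was lost without RGS replicate 11 (adjusted p = 0.0684). *Stxbp2*, the SM protein of blood cells and epithelia, was at 0.371, 0.356 and 0.129 CPM with vehicle and at 0.237, 1.05 and 1.47 CPM with RGS and was not called (adjusted p = 0.365). *Stxbp6*, or amisyn, an inhibitor of SNARE assembly, was at 4.51, 5.31 and 2.45 CPM with vehicle and at 1.09, 0.904 and 0 CPM with RGS. It fell (log2 fold change -2.61 ± 0.89 SE, adjusted p = 0.0316), and the call was lost without vehicle replicate 7 or 8 (adjusted p = 0.0771 to 0.140). *Stxbp5*, or tomosyn, another inhibitor, gave a log2 fold change of -0.12 ± 0.22 SE and an adjusted p of 0.722, and *Stxbp4* a log2 fold change of 0.13 ± 0.30 SE and an adjusted p of 0.780.

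The disassembly genes *Napa* and *Nsf* rose, while the brain adaptor *Napb* was lower without a call. *Napa*, the ubiquitous SNAP adaptor and the most abundant member per kb in both groups, was at 196, 208 and 186 CPM with vehicle and at 236, 247 and 314 CPM with RGS. Every RGS tumor was above every vehicle tumor (log2 fold change 0.44 ± 0.16 SE, adjusted p = 0.0389), and the call was lost without vehicle replicate 8 or 9 or RGS replicate 11 or 12 (adjusted p = 0.0771 to 0.246), with upper-quartile factors and with scaling by library size alone. *Nsf*, the ATPase itself, was at 38.9, 28.0 and 26.3 CPM with vehicle and at 60.3, 40.3 and 41.5 CPM with RGS. The lowest RGS tumor was only just above the highest vehicle tumor (log2 fold change 0.61 ± 0.21 SE, adjusted p = 0.0360), and the call was lost without vehicle replicate 8 or 9 or RGS replicate 10 (adjusted p = 0.115 to 0.198) and with scaling by library size alone. *Napb* was at 10.2, 8.73 and 11.9 CPM with vehicle and at 5.97, 4.29 and 7.46 CPM with RGS, with no overlap and a log2 fold change of -0.80 ± 0.35 SE and an adjusted p of 0.0885. It was called lower with scaling by library size alone and without RGS replicate 12. *Napb* made up 2.74, 2.21 and 3.33% with vehicle and 1.34, 0.923 and 1.26% with RGS of *Napa* and *Napb* counts per kb. Those means were 2.76% ± 0.561 against 1.17% ± 0.222 (SD, n = 3 per group, exact permutation test, two-sided p = 0.1). *Napg* gave a log2 fold change of -0.32 ± 0.19 SE and an adjusted p of 0.196.

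The SNAREs of endosomes, lysosomes and autophagosomes fell or were not called. Of these 9 members, 8 were tested, 0 rose (beside 16.3% of all tested genes) and 5 fell (62.5%, beside 16.5%), with a median log2 fold change of -0.54. Together they stood at 139, 159.6 and 167 CPM per kb with vehicle and at 115, 110.1 and 104 CPM per kb with RGS, so that every RGS tumor was lower. Of 7 listed fibroblast markers, 6 were tested, 1 rose (*Dcn*) and 3 fell (*Col1a2*, *Pdgfra* and *Pdgfrb*), with *Lum* at 0 counts in every tumor. Their summed level was also lower in every RGS tumor, at 572, 422 and 375 CPM with vehicle and 288, 277 and 306 CPM with RGS. Among the vehicle tumors it ran in the opposite order to the SNARE sum, but an order over 3 tumors cannot show whether the sums are linked. The part of these markers in the result was not tested. Beside *Vamp3*, the fall was clearest in *Vamp4*, which carries traffic between endosomes and the trans-Golgi network and was at 72.8, 97.2 and 96.0 CPM with vehicle and at 56.2, 45.4 and 58.9 CPM with RGS. No values overlapped (log2 fold change -0.73 ± 0.18 SE, adjusted p = 0.00406), and the call held with any 1 tumor left out. *Vamp7*, a SNARE of late endosomes and lysosomes, was at 29.1, 39.0 and 45.3 CPM with vehicle and at 21.7, 27.3 and 18.3 CPM with RGS. It fell (log2 fold change -0.75 ± 0.23 SE, adjusted p = 0.0153), with the call lost without vehicle replicate 8 or 9 or RGS replicate 10 or 12 (adjusted p = 0.0537 to 0.0824). It is annotated on the scaffold GL456233.1 and not on an assembled chromosome. *Snap29*, which joins autophagosomes to lysosomes, was at 33.5, 36.7 and 35.5 CPM with vehicle and at 24.9, 19.9 and 24.6 CPM with RGS. It fell (log2 fold change -0.60 ± 0.20 SE, adjusted p = 0.0268), with the call lost without vehicle replicate 8 or 9 or RGS replicate 11 (adjusted p = 0.0725 to 0.139), and it overlaps *Pi4ka* (663 to 1790 counts) by 329 bases on the other strand. *Stx7*, a syntaxin of late endosomes, was at 119, 123 and 143 CPM with vehicle and at 96.7, 97.0 and 82.5 CPM with RGS. It fell with no overlap (log2 fold change -0.48 ± 0.16 SE, adjusted p = 0.0260), and the call was lost without vehicle replicate 8 or 9 or RGS replicate 10, 11 or 12 (adjusted p = 0.0508 to 0.121). The other tested members of this role were *Stx8* (log2 fold change -0.05), *Stx12* (log2 fold change 0.08) and *Stx17* (log2 fold change -0.14), none of them called.

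Of 5 SNAREs of the Golgi and endoplasmic reticulum, all tested, 1 rose and 0 fell. They summed to 55.0, 63.8 and 60.8 CPM per kb with vehicle and to 77.2, 78.9 and 81.5 CPM per kb with RGS, and every RGS tumor was higher. Without *Snap47*, a sum taken after the values were seen, the other 4 genes stood at 35.2, 36.1 and 36.6 CPM per kb with vehicle and at 41.8, 38.1 and 35.6 with RGS and overlapped. *Snap47*, a widely expressed SNAP-25 relative on internal membranes, was at 52.4, 73.5 and 64.1 CPM with vehicle and at 93.9, 108 and 121 CPM with RGS. It rose (log2 fold change 0.77 ± 0.17 SE, adjusted p = 0.00229), the call held with any 1 tumor left out, and it overlaps *Jmjd4* (120 to 253 counts) on the other strand. *Stx5a*, the syntaxin of transport into and within the Golgi, gave a log2 fold change of 0.24 ± 0.16 SE and an adjusted p of 0.281. *Stx6* and *Stx16*, syntaxins of the trans-Golgi network, gave log2 fold changes of 0.30 ± 0.16 SE and -0.13 ± 0.18 SE, and *Stx18*, of the endoplasmic reticulum, 0.11 ± 0.26 SE, without a call.

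Outside both classes, *Snap91* fell. This clathrin adaptor of synaptic vesicle endocytosis was at 5.77, 7.02 and 4.90 CPM with vehicle and at 0.947, 1.05 and 0.551 CPM with RGS. The groups lay far apart (log2 fold change -2.79 ± 0.58 SE, adjusted p = 0.00110), and the call held with any 1 tumor left out. The Rab27-binding *Sytl1* and *Sytl2* gave log2 fold changes of 0.54 ± 1.30 SE and 0.16 ± 0.54 SE and were not called. Of the 23 called members, 10 kept their call with any 1 tumor left out: *Syt7*, *Syt11*, *Syt13*, *Snap25* and *Snap47* among the higher ones and *Snap91*, *Vamp3*, *Vamp4*, *Snap23* and *Syt4* among the lower.

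**Figure D4:**
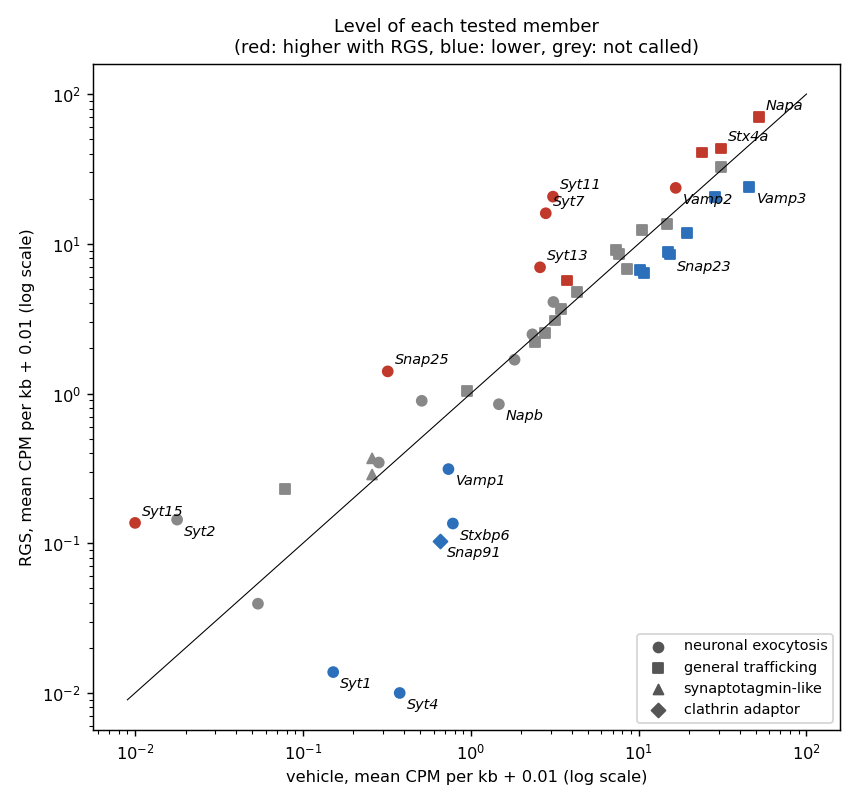
Mean level of the tested members reported here with vehicle (x axis) and RGS (y axis), in CPM per kb plus 0.01 on log axes, with marker shape for the class, colour for the call and a line at equal levels. *Syt11*, *Syt7*, *Syt13* and *Snap25* lie well above the line at low to middle level, and the most abundant members, general ones such as *Napa* and *Vamp3*, lie nearer to it.

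Promoter sequences are shown for 6 called members to set those that rose (*Syt11*, *Napa* and *Nsf*) beside those that fell (*Snap23*, *Stxbp3* and *Vamp4*). RefSeq windows of 300 bases (250 before the start and 50 after, GRCm38.p6) were given for 45 of the 59 members, in 56 windows. The motifs searched on both strands were AP-1 (TGANTCA), the cAMP response element (TGACGTCA), the left part of the RE1 element bound by the neuronal repressor REST (TTCAGCACC), the palindromic E-box (CACGTG) and the GC box (GGGCGG), and their letters stand in capitals, on either strand. Positions count from the start site, negative before it. No hits of different motifs overlapped in these windows. The windows are *Syt11* (chr3:88772550-88772849, minus strand), *Napa* (chr7:16098330-16098629, plus), *Nsf* (chr11:103954007-103954306, minus), *Snap23* (chr2:120567421-120567720, plus), *Stxbp3* (chr3:108840453-108840752, minus) and the first of the windows of *Vamp4* (chr1:162570265-162570564, plus), each written 5′ to 3′ on the gene's strand.
Syt11: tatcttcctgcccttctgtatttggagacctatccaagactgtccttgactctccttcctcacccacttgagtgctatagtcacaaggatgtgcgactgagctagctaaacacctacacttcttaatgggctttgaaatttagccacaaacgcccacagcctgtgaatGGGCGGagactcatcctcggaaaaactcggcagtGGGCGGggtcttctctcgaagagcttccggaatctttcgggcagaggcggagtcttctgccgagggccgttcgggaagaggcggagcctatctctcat
Napa: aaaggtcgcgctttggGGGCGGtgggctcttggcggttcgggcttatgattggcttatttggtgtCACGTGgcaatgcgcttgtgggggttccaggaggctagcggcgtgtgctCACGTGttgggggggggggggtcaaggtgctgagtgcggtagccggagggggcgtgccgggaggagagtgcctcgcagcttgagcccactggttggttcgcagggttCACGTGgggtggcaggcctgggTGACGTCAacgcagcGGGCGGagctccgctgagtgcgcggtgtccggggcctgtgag
Nsf: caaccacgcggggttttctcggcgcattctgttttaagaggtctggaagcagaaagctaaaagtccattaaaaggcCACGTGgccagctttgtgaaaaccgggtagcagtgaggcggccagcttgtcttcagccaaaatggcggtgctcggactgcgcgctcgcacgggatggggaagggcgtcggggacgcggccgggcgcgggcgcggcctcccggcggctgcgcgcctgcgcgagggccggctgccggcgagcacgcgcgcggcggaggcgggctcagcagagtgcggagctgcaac
Snap23: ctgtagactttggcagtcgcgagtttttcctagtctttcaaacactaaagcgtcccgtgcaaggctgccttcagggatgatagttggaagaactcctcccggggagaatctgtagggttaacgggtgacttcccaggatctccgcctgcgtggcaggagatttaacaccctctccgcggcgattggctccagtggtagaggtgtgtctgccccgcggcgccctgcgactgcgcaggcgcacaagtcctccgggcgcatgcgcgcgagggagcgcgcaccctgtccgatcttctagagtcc
Stxbp3: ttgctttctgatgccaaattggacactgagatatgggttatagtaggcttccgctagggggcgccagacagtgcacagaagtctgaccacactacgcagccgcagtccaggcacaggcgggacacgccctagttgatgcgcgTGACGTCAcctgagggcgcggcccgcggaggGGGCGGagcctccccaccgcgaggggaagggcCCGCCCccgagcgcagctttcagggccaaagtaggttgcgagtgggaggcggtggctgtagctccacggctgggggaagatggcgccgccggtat
Vamp4: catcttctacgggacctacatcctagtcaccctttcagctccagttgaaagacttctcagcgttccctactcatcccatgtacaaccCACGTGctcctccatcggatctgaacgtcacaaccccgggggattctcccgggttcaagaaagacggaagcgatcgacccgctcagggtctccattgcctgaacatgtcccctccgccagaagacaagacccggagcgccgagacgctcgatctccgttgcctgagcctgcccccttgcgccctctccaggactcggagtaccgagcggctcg

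The window of *Syt11* holds GC boxes at -82 and -48. That of *Napa* holds E-boxes at -185, -136 and -29, GC boxes at -234 and 9 and a cAMP response element at -7, and the window of *Stxbp3* a cAMP response element at -108 with GC boxes at -77 and -45. *Nsf* and *Vamp4* hold an E-box each, at -174 and -163, and *Snap23* holds none of the motifs. In these windows, a selection from the called members, each motif found in a member that rose also stood in one that fell. Over all windows of called members, an E-box was in 2 of 6 higher and 1 of 12 lower ones. A GC box was in 5 and 7 of them, and a cAMP response element in 1 and 1. With so few windows, these counts were not tested. Over the 56 member windows, 60.7% held a GC box beside 35.7% of all 32851 windows, 14.3% an E-box beside 7.15%, 7.14% an AP-1 motif beside 7.81%, and 3.57% a cAMP response element beside 1.79%. The RE1 part was in 0 member windows and in 0.371% of all windows. The median GC content was 66.0% over the neuronal and 60.8% over the general windows, beside 52.7% over all. These matches describe the letters of the windows and show no binding.

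In lists of genes that work with the members, 14.3% to 28.6% of the tested genes per list were called higher and 0% to 23.5% lower. Over all tested genes, 16.3% were called higher and 16.5% lower, and each list held only 7 to 17 tested genes. The values in parentheses are log2 fold changes. The median log2 fold change was 0.84 for dense-core granule proteins, 0.45 for the Rab3 and Rab27 module, 0.41 for synaptic vesicle membrane proteins, 0.39 for extended synaptotagmins and ferlins, 0.00 for other SNAREs, -0.04 for tethers and -0.64 for priming and clamping factors, beside -0.05 for all tested genes. Synaptic vesicle membrane proteins numbered 20 in the table, of which 14 were tested, 4 rose and 0 fell; *Sv2a*, a vesicle glycoprotein, rose (1.98 ± 0.57 SE, adjusted p = 0.0114), as did *Syngr1* (0.51 ± 0.17 SE, adjusted p = 0.0300), which overlaps *Rpl3*, and *Syn1* (2.90 ± 0.26 SE, adjusted p = 1.15e-07), which overlaps *Timp1* and *Araf* on the other strand. Dense-core granule proteins numbered 12, all tested, of which 3 rose and 0 fell, namely *Scg2* (3.48 ± 0.63 SE, adjusted p = 3.26e-04), *Ptprn* (2.60 ± 0.17 SE, adjusted p = 2.04e-09) and the processing enzyme *Cpe* (1.92 ± 0.16 SE, adjusted p = 3.83e-08). Among priming and clamping factors, 11 of 21 were tested, 2 rose and 2 fell. *Rims2*, a scaffold of the release site, was higher (1.46 ± 0.16 SE, adjusted p = 1.85e-06), as was *Cplx2*, a complexin (0.91 ± 0.22 SE, adjusted p = 0.00415). *Snapin* was lower (-0.67 ± 0.16 SE, adjusted p = 0.00357). It overlaps *Ilf2* on the other strand, which had 1575 to 5027 counts and a log2 fold change of -0.71. *Unc13a*, a priming factor, was lower with overlapping groups (-1.29 ± 0.39 SE, adjusted p = 0.0167). It overlaps *Colgalt1* on the other strand, which had 713 to 4423 counts and a log2 fold change of -1.09. The part of the overlapping genes in these falls was not tested. In the Rab3 and Rab27 module, 12 entries were tested, 2 rose, *Rab27b* (1.177 ± 0.31 SE, adjusted p = 0.00617) and *Rab3gap2* (0.60 ± 0.18 SE, adjusted p = 0.0180), and 2 fell, *Rab3b* (-2.56 ± 0.42 SE, adjusted p = 1.15e-04) and *Myo5a* (-0.84 ± 0.18 SE, adjusted p = 0.00174). Other SNAREs of the secretory pathway, 17 tested, split into 3 that rose and 4 that fell, with *Gosr2* (1.01 ± 0.16 SE, adjusted p = 1.02e-04) and *Ykt6* (0.82 ± 0.17 SE, adjusted p = 0.00101) higher and *Sec22a* (-1.31 ± 0.37 SE, adjusted p = 0.0110) and *Use1* (-1.06 ± 0.23 SE, adjusted p = 0.00183) lower. The exocyst and HOPS tethers, 14 tested, gave 3 higher and 2 lower, and the extended synaptotagmins and ferlins, 7 tested, 1 higher (*Fer1l6*, 1.97 ± 0.43 SE, adjusted p = 0.00178) and 1 lower (*Esyt2*, -1.19 ± 0.15 SE, adjusted p = 5.68e-06).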

How the data were processed

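Libraries labelled as tumors were sequenced, and the authors deposited unnormalized read counts for each gene and tumor. The submitters' processing notes name cutadapt 1.18, FastQC 0.11.7, STAR 2.7.1a, featureCounts 1.6.4 and the build mm10. The strand setting and the handling of multi-mapping reads are not given in the sources used here. Of the gene identifiers, 38971 are also in GENCODE M21, all at the same position. Groups were taken from the sample titles.

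Genes with a median of at least 5 counts in at least 1 group were fitted with edgeR 4.0.16 in R 4.3.3 (TMM factors, quasi-likelihood F test, dispersions without the robust option, Benjamini-Hochberg adjustment over 15355 genes). The SE of a log2 fold change was derived from it and its F statistic. At these depths 3 counts, the floor for bounds, equal 0.0856 to 0.226 CPM. Paralog shares were compared with an exact two-sided permutation test over tumors. Replicates of a group differed beyond sampling noise (chi-square per degree of freedom 19.6 to 125).

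Values are given for the members of the paralog shares and *Nsf*, called members with a mean of at least 1 CPM in a group (up to 12 per direction), every tested synaptotagmin, and up to 3 called genes per direction of each partner list; others were named by role. The members, classes and lists were chosen with earlier results of these data known. Alternatives were DESeq2 1.42.0, limma 3.58.1 (voom), robust dispersions, other scalings, filters and thresholds, thinning to the smallest library and each tumor left out in turn. *Vamp5* was not analysed here, and single values of some members are not reported here, although the counts, medians and sums over the classes include them.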

Additional observations from a re-analysis of the deposited data

How the results depend on the processing

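Of 798 fits of 45 single members under alternatives, 698 kept direction and side of the threshold, 74 lost the call, 3 gained it and 23 changed sign (in 13 members, 0 of them called), and 27 of the 45 changed call under none. The changed log2 fold changes were *Stx18* -0.025, *Stxbp4* -0.012, *Stx12* -0.064, *Stx2* -0.0028 and *Stx1a* -0.038 with scaling by library size alone and *Syt12* -0.073 and *Sytl1* -0.013 under limma voom. With 1 tumor left out, members that changed sign ranged over *Stx18* -0.11 to 0.22, *Stxbp4* -0.092 to 0.29, *Stx17* -0.31 to 0.047, *Stx8* -0.17 to 0.033, *Stx2* -0.034 to 0.26, *Stx3* -0.24 to 0.098, *Stx1a* -0.094 to 0.26, *Stxbp5* -0.26 to 0.043, *Syt12* -0.75 to 0.73, *Syt14* -6.71 to 0.23, *Sytl1* -1.53 to 1.71 and *Sytl2* -0.11 to 0.56. With scaling by library size alone, 6 members and 1 general member were called higher. At an adjusted p under 0.01, 5 members were called higher and 5 lower (10.6% each, beside 10.5% and 10.2% of all genes), of which 4 and 1 were neuronal and 1 and 3 general. With a log2 fold change of at least 1 in size as well as an adjusted p under 0.05, 5 members were higher and 5 lower (10.6% each, beside 7.61% and 9.44%), 0 and 0 of them general. Without the synaptotagmins, the neuronal class held 3 higher and 2 lower members (33.3% and 22.2%, beside 16.3% and 16.5% of all tested genes). On counts not divided by gene length, the RGS minus vehicle difference was 17.1 points for the *Snap25* share (11.8 per kb) and -2.85 points for the *Napb* share (-1.58 per kb). With 1 tumor left out, calls ranged from 5 to 9 members higher and 6 to 10 lower, beside at most 16.9% and 16.0% of all genes, 4 to 6 and 1 to 4 in the neuronal class, and 1 to 4 and 4 to 7 in the general class. The fewest calls came without vehicle replicate 8, with 5 members higher (10.6%, beside 1776 of 16088 genes) and 6 lower (12.8%, beside 1717 of 16088, or 10.7%). The share differences then ranged from 10.4 to 12.7 points for *Snap25*, 21.3 to 23.0 for *Vamp1* and *Vamp2*, and -1.86 to -1.30 for *Napb*. DESeq2 called 24 members, 12 higher and 12 lower (25.5% each, beside 18.0% and 17.2% of all genes). Stricter thresholds call fewer genes by construction, and the cause of the other shifts was not tested. No paired analysis was possible because the replicate numbers of the groups (7 to 9 and 10 to 12) are not shared. With 3 tumors a group, members with few counts, such as *Syt2* and *Stxbp2*, have wide errors, and a missed call there does not show equal levels.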
